A study of Cricetulus griseus with 6 samples.

Results

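The genes examined here encode the machinery through which proteins enter the endoplasmic reticulum (ER) and receive their first modifications, namely the signal recognition particle (SRP) and its receptor, the Sec61 channel and its partners, the TRAP complex, signal peptidase and oligosaccharyltransferase. They were chosen by gene symbol from a list of 37, of which 35 stand on exactly 1 of the 27873 rows of the deposited tables, while *Srprb* and *Sec61g* match no row. All 35 passed the filter on low values, so that every matched gene was tested. Most nascent secretory and membrane proteins carry a signal sequence, which SRP binds as it leaves the ribosome and delivers through the SRP receptor to Sec61. The chain is threaded through the channel, signal peptidase removes the signal, and oligosaccharyltransferase joins a preassembled glycan to asparagine residues. XBP1, which IRE1α activates by splicing of its mRNA, is a transcription factor known in secretory cells for raising genes of ER entry, folding and export.

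The samples were CHO-T cells, Chinese hamster ovary cells stably carrying mouse T-cadherin (*Cdh13*) cDNA from a retrovirus under puromycin selection, so that the transgene was present in both groups. They received negative control siRNA (3 control libraries) or *Xbp1* siRNA (3 silenced libraries), and their mRNA was sequenced with strand information 48 h later. The labels do not say whether the 3 libraries of a group came from separate cultures. The study's methods speak of independent biological experiments for its results in general, without naming these libraries, so p-values measure the spread between them, which may be technical. Levels are given in FPKM, read fragments scaled to transcript length and to the size of the library, a scale that allows levels of different genes to be compared. Differences were tested with limma on the log2(FPKM + 0.1) scale, positive values being higher with *Xbp1* siRNA, and they understate the change of weakly expressed genes. A gene is said to have risen or fallen where the adjusted p (Benjamini-Hochberg, over all 14361 rows tested) was under 0.05. The stricter limits of the study's methods, which also ask for a log2 fold change of at least 1 in size, are given separately.

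The silenced gene served as the check of the labels. *Xbp1* had 26.0, 26.2 and 28.4 FPKM with control siRNA and 2.18, 2.11 and 1.39 FPKM with *Xbp1* siRNA, a fall of 93.0%. Read totals are not in the files. The commonest ratio of low values between libraries put their depth at 94.0% to 116% of that of control replicate 1. Of 5 mesenchymal markers looked up, *Vim* had 369–389 FPKM with control siRNA and 296–319 FPKM with *Xbp1* siRNA and fell, *Col3a1* fell from 3.51–4.63 to 1.27–1.40 FPKM, *Fn1* rose from 12.7–13.5 to 23.2–23.4 FPKM, and *Col1a1* and *Col1a2* were listed at 0 in all 6 libraries. Of 3 epithelial markers that match a row, *Epcam* rose from 1.73–1.94 to 4.20–5.44 FPKM and *Cdh1* from 0.0296–0.223 to 0.353–0.551 FPKM, while *Krt18* was listed at 0. The granulosa cell gene *Amh* had 2.07–3.16 and 2.35–3.55 FPKM and did not pass, and *Fshr* was listed at 0. Of the immune markers, *Cd68* rose from 5.18–6.15 to 6.99–8.80 FPKM and *Ptprc* was listed at 0, and of the endothelial ones *Pecam1* had at most 0.268 FPKM and *Cdh5* was listed at 0. The part of these shifts in the results was not tested. In bulk RNA, fewer cells of a kind and less RNA per cell cannot be told apart.

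*Xbp1* silencing was followed by small changes in both directions among the 35 genes, and by 1 large change. *Tusc3*, a subunit of oligosaccharyltransferase, rose 3.25-fold, while *Srp19* and *Srp72* of SRP fell by 41.7% and 40.9%. In all, 11 genes rose, 12 fell and 12 did not pass the test, and 27 of the 35 differed by less than 20% between the group means. The 23 genes that passed are 65.7% of the members, and each of them had libraries that did not overlap between the groups. The background was high: 40.4% of all rows tested passed, 20.2% as higher and 20.2% as lower, and among the 7458 rows with a mean of at least 10 FPKM 54.3% passed, 24.1% as higher and 30.2% as lower. Of the members, 32 had a mean of at least 10 FPKM, and 22 of these passed. Libraries of the groups did not overlap for 25 members, or 71.4%, and for 51.8% of all rows tested. This share was not taken for rows with a mean of at least 10 FPKM, which passed more often.

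At a log2 fold change of at least 1 in size, *Tusc3* was called higher and 0 members were called lower, against 2.69% of all rows called higher and 2.5% called lower. Without adjustment, 12 members were higher and 13 lower at a p under 0.05, beside 24.6% and 24.3% of all rows, weakly expressed ones included. The median log2 fold change over the 35 genes was 0.028, beside 0.0063 over all rows tested and −0.023 over rows with a mean of at least 10 FPKM. The direction of small changes depended in part on the scaling of the libraries. After quantile normalization 17 members rose and 7 fell, with a median of 0.10, beside 21.7% of all rows higher and 18.5% lower. Under that scaling *Srp14*, *Srp68*, *Sec61b*, *Ssr1* and *Stt3b* no longer passed as lower. The log2 change of *Rpn2* went from −0.026 to 0.24. The FPKM of all rows added up to 646651 to 666267 in the control libraries and to 593487 to 600986 with *Xbp1* siRNA, and its part in these shifts was not tested. Without control replicate 2 or without silenced replicate 2, 6 members rose rather than 11, beside 16.9% and 16.6% of the rows tested in these fits. With eBayes run without its trend on expression level, 5 rose and 8 fell, beside 18.1% and 18.3% of all rows, and *Srp9*, *Srp68*, *Sec61b*, *Ssr1*, *Ssr4*, *Tram1*, *Spcs3*, *Sec11a*, *Rpn1* and *Stt3b* no longer passed (adjusted p from 0.0511 to 0.111).

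Of the 23 genes, 11 passed in the same direction under all 14 alternative settings, among them each left-out library and both other scalings. These were *Tusc3*, *Ssr2*, *Ddost* and *Stt3a*, which rose, and *Srp19*, *Srp72*, *Srp54*, *Sec61a1*, *Ssr3*, *Spcs2* and *Serp1*, which fell. Each of the other 12 did not pass under at least 1 setting, and none of the 23 changed direction under any of these settings.

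**Figure D1:**
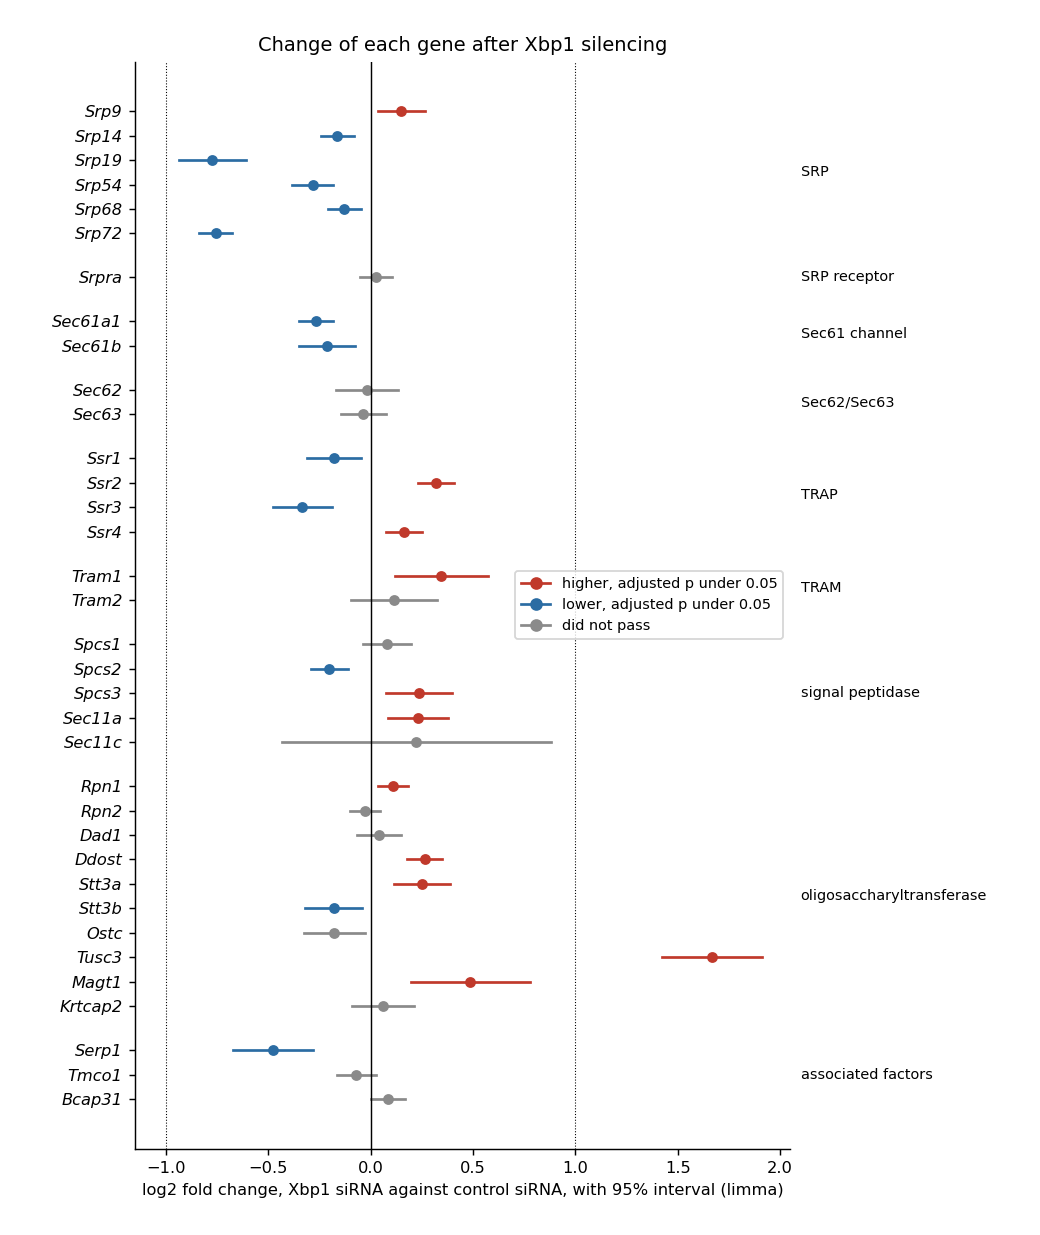
Log2 fold change of each of the 35 genes (Xbp1 siRNA against control siRNA, x axis) with its 95% interval from limma, grouped by complex; red marks genes that rose, blue genes that fell, grey genes that did not pass, and dotted lines mark a change of 1. *Tusc3* at 1.67 stands beyond the dotted line, while *Srp19* and *Srp72* at −0.77 and −0.76 come closest to it on the other side.

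The genes spanned a wide range of expression. *Ssr2*, encoding the β subunit of TRAP, was highest with a mean of 634 FPKM over the 6 libraries, followed by *Rpn2*, the gene of ribophorin II, with 488 FPKM. *Sec11c* was lowest with 3.41 FPKM, below *Tram2* with 5.63 FPKM and *Tusc3* with 7.33 FPKM. The median gene had a mean of 69.1 FPKM. Within groups the libraries were close, with a median coefficient of variation of 4.31% for control siRNA and 3.45% for *Xbp1* siRNA. *Sec11c* varied most, by 38.1% and 13.2%. The 35 genes together held 0.608% to 0.623% of all FPKM in the control libraries and 0.689% to 0.708% with *Xbp1* siRNA. Their own sum was 3997 to 4083 FPKM and 4140 to 4223 FPKM, while the sum over all rows was lower with *Xbp1* siRNA, with means of 655927 and 597243 FPKM. Within the members, *Ssr2* alone went from a mean of 564 to 704 FPKM, and the 6 SRP genes together from 482 to 406 FPKM.

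**Figure D2:**
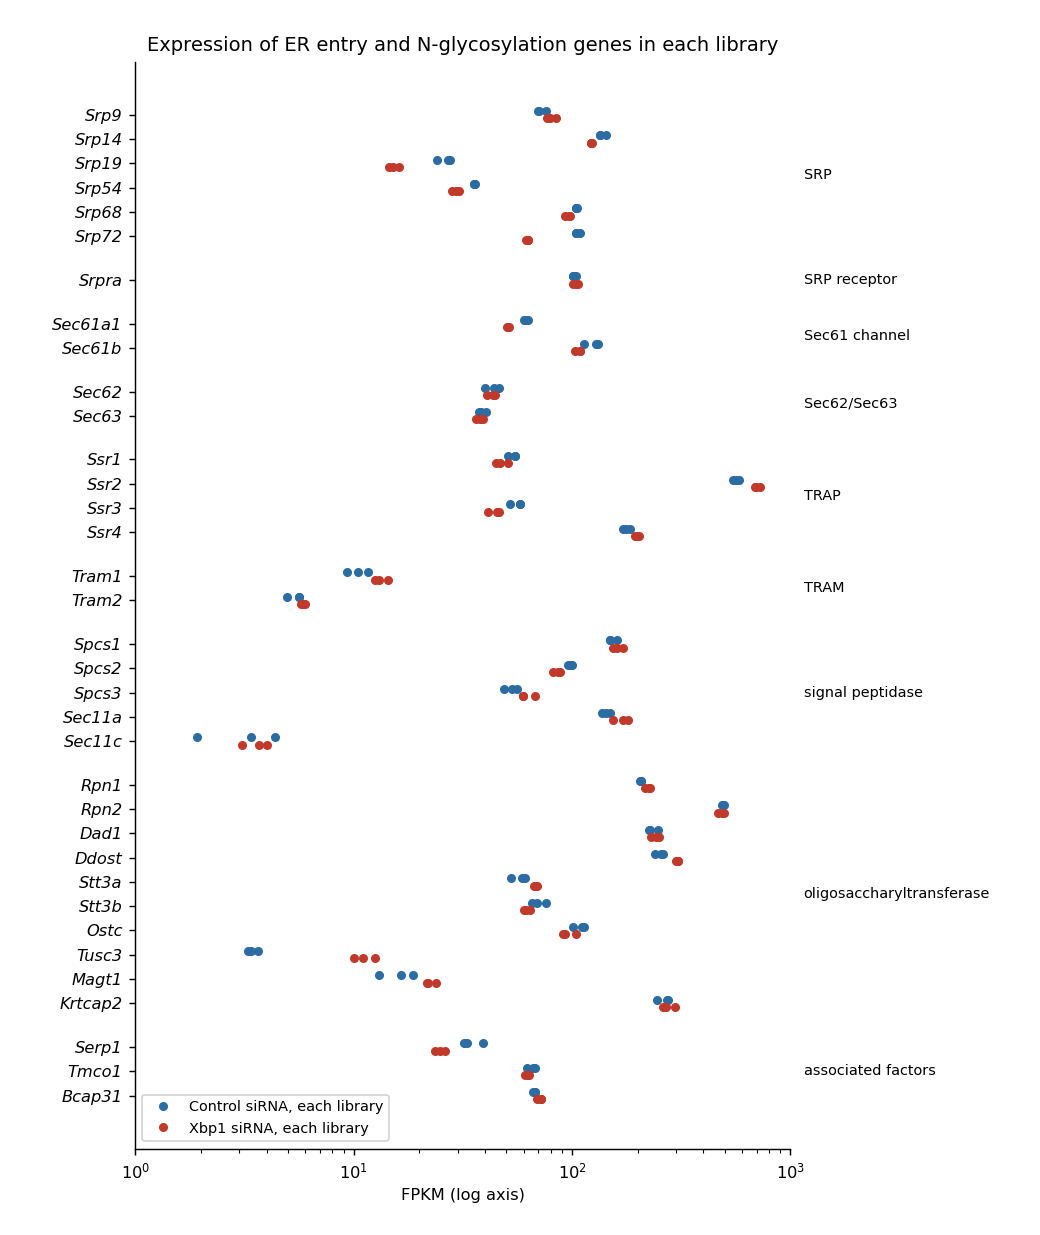
FPKM of each of the 35 genes on a log axis, 1 point per library, with control siRNA in blue and Xbp1 siRNA in red, grouped by complex. Levels run from 1.91 FPKM for *Sec11c* in control replicate 3 to 728 FPKM for *Ssr2* in Xbp1 siRNA replicate 1, and for most genes the groups lie close to each other beside this range.

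SRP is a ribonucleoprotein whose proteins were all measured, and 5 of its 6 subunit genes fell, where 30.2% of rows with a mean of at least 10 FPKM fell. *Srp19* encodes the subunit that binds the SRP RNA early in assembly and prepares the site for SRP54. It had 26.9, 24.1 and 27.6 FPKM in control replicates 1 to 3 and 16.2, 15.1 and 14.6 FPKM with *Xbp1* siRNA, so that each control library was well above each silenced one. This gave a log2 fold change of −0.77 (standard error 0.070, adjusted p = 1.37e-04). *Srp72*, whose product forms a heterodimer with SRP68 on the RNA, had 105, 109 and 105 FPKM and 61.9, 63.0 and 63.2 FPKM, with a log2 change of −0.76 (standard error 0.034, adjusted p = 6.04e-06). Its partner *Srp68* changed far less, with 105, 104 and 104 FPKM against 98.0, 96.5 and 92.6 FPKM and a log2 fold change of −0.13 (standard error 0.034, adjusted p = 0.0190). With control siRNA the partners stood at nearly the same level, 106 ± 2.58 FPKM for *Srp72* and 105 ± 0.674 FPKM for *Srp68* (SD, n = 3). With *Xbp1* siRNA they stood apart, at 62.7 ± 0.703 FPKM and 95.7 ± 2.76 FPKM (SD, n = 3), and the 95% intervals of their changes, −0.84 to −0.68 and −0.21 to −0.049, did not meet.

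*Srp54*, the GTPase subunit that binds the signal sequence, had 36.1, 35.5 and 35.6 FPKM with control siRNA and 28.3, 30.3 and 29.4 FPKM with *Xbp1* siRNA. It fell by 17.9%, with a log2 fold change of −0.28 (standard error 0.043, adjusted p = 0.00159). *Srp14* and *Srp9* encode the heterodimer of the Alu domain, which slows elongation while the ribosome is brought to the membrane, and they moved in opposite directions. *Srp14* had 135, 143 and 134 FPKM against 122, 122 and 123 FPKM and fell, with a log2 change of −0.16 (standard error 0.034, adjusted p = 0.00730). *Srp9* had 76.0, 70.1 and 70.8 FPKM against 79.6, 84.2 and 76.8 FPKM, the lowest silenced library lying just above the highest control one, with a log2 change of 0.15 (standard error 0.049, adjusted p = 0.0458). After quantile normalization the falls of *Srp14* and *Srp68* were smaller, with log2 changes of −0.082 and −0.051, and did not pass (adjusted p = 0.0782 and 0.259). The rise of *Srp9* did not pass with no filter (adjusted p = 0.0550) or when control replicate 2 or 3 or silenced replicate 1 or 2 was left out (adjusted p from 0.0915 to 0.136), and the fall of *Srp68* did not pass without control replicate 2 or silenced replicate 3 (adjusted p from 0.0538 to 0.0684). The summed FPKM of the 6 genes was 482 ± 4.51 with control siRNA and 406 ± 5.86 with *Xbp1* siRNA (SD, n = 3).

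**Figure D3:**
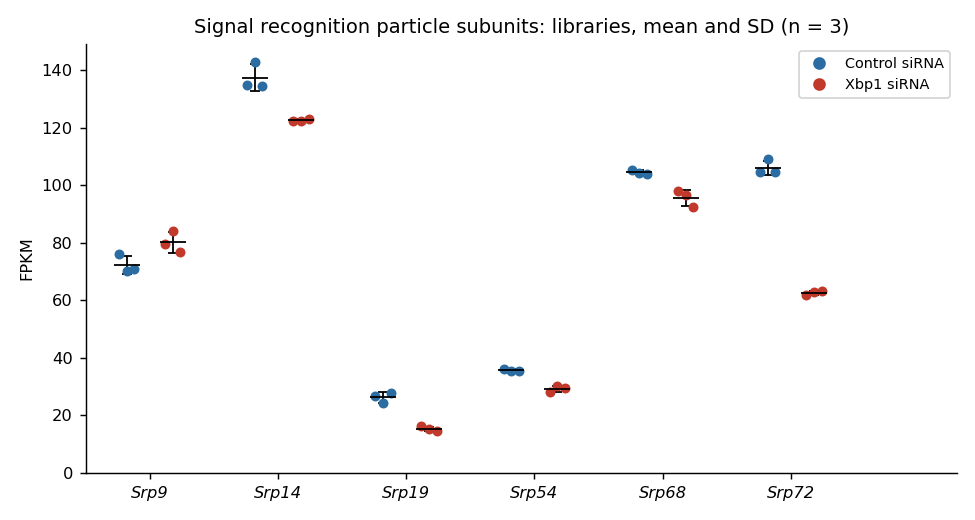
FPKM of the 6 SRP genes (y axis, from 0), 1 point per library, with control siRNA in blue and Xbp1 siRNA in red; horizontal marks are means and bars are SD (n = 3). The groups lie farthest apart for *Srp72* and, at a lower level, *Srp19*, and *Srp9* is the gene whose silenced libraries are above its control libraries.

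*Srpra*, the α subunit of the SRP receptor, is the GTPase that docks SRP at the ER membrane. It had 101, 104 and 101 FPKM with control siRNA and 102, 107 and 105 FPKM with *Xbp1* siRNA, and the groups overlapped. Its log2 fold change of 0.028 had a 95% interval of −0.050 to 0.11 (adjusted p = 0.542). After quantile normalization it passed as higher, with a log2 change of 0.10 (adjusted p = 0.0436).

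At the channel, both measured Sec61 subunits fell, beside 30.2% of rows with a mean of at least 10 FPKM, and *Sec61b* did not pass under 6 of the 14 alternative settings. *Sec61a1* encodes the subunit that forms the pore, and it had 63.1, 60.7 and 60.5 FPKM in the control libraries and 50.8, 50.7 and 51.7 FPKM in the silenced ones. Its silenced libraries lay close together below the control range, with a log2 fold change of −0.27 (standard error 0.036, adjusted p = 8.57e-04). *Sec61b*, a small tail-anchored subunit, had 131, 129 and 114 FPKM against 109, 103 and 109 FPKM, with a log2 change of −0.21 (standard error 0.059, adjusted p = 0.0223). Control replicate 3 was the lowest of its control libraries and stood close to the silenced ones. The fall of *Sec61b* did not pass without control replicate 1 or 2 or silenced replicate 2 or 3 (adjusted p from 0.0504 to 0.0753), nor after quantile normalization (adjusted p = 0.0596). *Sec61a2*, a paralog of the pore subunit expressed at 17.6 FPKM on average, rose in the same cells, from 14.3, 15.3 and 15.1 FPKM to 20.6, 21.2 and 19.3 FPKM, with a log2 fold change of 0.45 (standard error 0.059, adjusted p = 8.40e-04).

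*Sec62* and *Sec63* encode membrane partners that assist the opening of the channel, SEC63 also recruiting the chaperone BiP. *Sec62* had 40.1, 44.0 and 46.6 FPKM and 40.7, 44.5 and 43.7 FPKM, and *Sec63* had 37.5, 38.2 and 40.5 FPKM and 36.4, 37.9 and 39.0 FPKM. The groups overlapped for both. Their log2 fold changes were −0.018, with a 95% interval of −0.17 to 0.13, and −0.036, with one of −0.15 to 0.076, and after quantile normalization both lay slightly above 0.

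The 4 subunits of TRAP, a membrane complex beside the channel that helps certain signal sequences to engage it, moved both ways, 2 rising and 2 falling, beside 24.1% and 30.2% of rows with a mean of at least 10 FPKM. *Ssr2*, the β subunit, rose from 585, 565 and 544 FPKM to 728, 685 and 698 FPKM, with a log2 change of 0.32 (standard error 0.038, adjusted p = 5.13e-04). *Ssr4*, the δ subunit, rose from 171, 185 and 177 FPKM to 195, 202 and 199 FPKM, with a log2 change of 0.16 (standard error 0.038, adjusted p = 0.0109). In neither gene did a silenced library fall within the range of the control libraries, and quantile normalization gave larger log2 changes, 0.63 for *Ssr2* and 0.29 for *Ssr4*. *Ssr3*, the γ subunit, fell from 52.1, 57.8 and 58.0 FPKM to 41.5, 45.2 and 46.5 FPKM, with a log2 change of −0.33 (standard error 0.062, adjusted p = 0.00427). *Ssr1*, the α subunit, had 51.1, 54.9 and 54.6 FPKM against 44.7, 50.7 and 46.6 FPKM, with a log2 change of −0.18 (standard error 0.056, adjusted p = 0.0389). The subunits that rose were the more abundant ones, at 634 and 188 FPKM on average, and those that fell stood at 50.2 and 50.5 FPKM. Leaving out control replicate 2 or 3 or silenced replicate 1 or 3 ended the call of *Ssr1* (adjusted p from 0.105 to 0.114), as did quantile normalization (adjusted p = 0.151).

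*Tram1* and *Tram2* encode translocating chain-associated membrane proteins, which contact nascent chains at the channel, and both were weakly expressed. *Tram1* had 9.32, 10.4 and 11.7 FPKM with control siRNA and 13.0, 12.6 and 14.3 FPKM with *Xbp1* siRNA, a rise of 26.9% with a log2 fold change of 0.34 (standard error 0.097, adjusted p = 0.0251). *Tram2* had 4.95, 5.63 and 5.64 FPKM and 5.98, 5.85 and 5.72 FPKM, and did not pass, with a log2 change of 0.11 (95% interval −0.10 to 0.33, adjusted p = 0.356). The rise of *Tram1* did not pass without control replicate 1 or 2 or silenced replicate 1 or 3 (adjusted p from 0.0570 to 0.0870). The ratio of *Tram1* to *Tram2* was 1.88, 1.85 and 2.07 in the control libraries and 2.18, 2.15 and 2.50 in the silenced ones. On the log2 scale it differed by 0.23 (exact two-sided permutation test, p = 0.10, adjusted p = 0.133 over 4 pairs of paralogs). An exact test of 3 libraries against 3 cannot give a p below 0.10, so that none of these pairs could reach 0.05.

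Of the factors bound to the translocon, *Serp1* fell. It encodes RAMP4, a small protein of the ribosome-bound channel known for protecting membrane proteins under ER stress. Its control libraries had 32.2, 39.2 and 33.0 FPKM and its silenced libraries 25.0, 23.5 and 26.2 FPKM, a fall of 28.4% with a log2 fold change of −0.48 (standard error 0.083, adjusted p = 0.00312). *Tmco1*, an insertase subunit of the translocon for multipass proteins, had 62.5, 66.4 and 67.4 FPKM against 63.3, 61.0 and 62.6 FPKM, with a log2 change of −0.070 (95% interval −0.17 to 0.027, adjusted p = 0.223). *Bcap31*, an ER membrane protein that takes part in export and quality control, had 66.4, 67.5 and 67.5 FPKM against 69.0, 72.5 and 71.9 FPKM. The libraries of *Bcap31* did not overlap, but its log2 fold change of 0.083 did not pass (adjusted p = 0.0981). After quantile normalization the log2 change was 0.15 (adjusted p = 0.0141).

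Of the 5 signal peptidase genes, 2 rose, 1 fell and 2 did not pass. Of rows with a mean of at least 10 FPKM, 54.3% passed, 24.1% as higher and 30.2% as lower, and *Sec11c* lies below such a mean. *Sec11a* and *Sec11c* encode alternative catalytic subunits, and *Sec11a* was by far the more abundant, at 156 FPKM on average against 3.41 FPKM. *Sec11a* had 137, 143 and 149 FPKM with control siRNA and 153, 180.3 and 171 FPKM with *Xbp1* siRNA, with a log2 change of 0.23 (standard error 0.063, adjusted p = 0.0227). *Sec11c* had 3.41, 4.35 and 1.91 FPKM and 4.01, 3.71 and 3.08 FPKM. Control replicate 3 was the lowest and control replicate 2 the highest of its 6 libraries, and the log2 fold change of 0.22 had a 95% interval of −0.44 to 0.88 (adjusted p = 0.571). The ratio of *Sec11a* to *Sec11c* differed by 0.0082 on the log2 scale (exact two-sided permutation test, p = 1.0).

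*Spcs3*, an accessory subunit needed for peptidase activity, had 49.0, 53.1 and 56.1 FPKM against 59.4, 67.5 and 59.4 FPKM, with a log2 change of 0.24 (standard error 0.069, adjusted p = 0.0297). *Spcs2*, a subunit that links the peptidase to the translocon, fell from 98.6, 95.9 and 100.1 FPKM to 87.7, 86.6 and 81.9 FPKM, with a log2 change of −0.20 (standard error 0.039, adjusted p = 0.00503). The third accessory subunit, *Spcs1*, had 149, 149 and 160.2 FPKM and 153, 171 and 160.2 FPKM, with a log2 change of 0.080 (adjusted p = 0.248). After quantile normalization *Spcs1* passed as higher, with a log2 change of 0.18 (adjusted p = 0.0339), and the log2 change of *Spcs2* was −0.12 (adjusted p = 0.0455). In percent, *Sec11a* and *Spcs3* were higher by 17.5% and 17.8%, while *Spcs2* was lower by 13.0%. The rise of *Sec11a* did not pass without control replicate 1 or 2 or silenced replicate 2 or 3 (adjusted p from 0.060 to 0.0723), and that of *Spcs3* did not pass without control replicate 1 or 2 or silenced replicate 2 (adjusted p from 0.0691 to 0.0821).

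Oligosaccharyltransferase exists in forms built on different catalytic subunits. The STT3A form sits at the channel and glycosylates chains as they enter, with the help of *Ostc* and *Krtcap2*, while the STT3B form reaches sites that the first has missed and carries MAGT1 or TUSC3, oxidoreductases that keep cysteines near such sites from closing into disulfides. Of the 10 subunit genes measured, 5 rose, 1 fell and 4 did not pass. Of rows with a mean of at least 10 FPKM, 54.3% passed, 24.1% as higher and 30.2% as lower, and *Tusc3* lies below such a mean. The changes in the genes specific to the STT3B form went in both directions, 2 rising and 1 falling, beside the same shares.

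*Tusc3* had 3.39, 3.66 and 3.30 FPKM in control replicates 1 to 3 and 12.5, 11.1 and 10.1 FPKM in *Xbp1* siRNA replicates 1 to 3. Every silenced library was more than 2 times every control library. The means were 3.45 ± 0.190 FPKM and 11.2 ± 1.25 FPKM (SD, n = 3), which gave a log2 fold change of 1.67 (standard error 0.10, adjusted p = 2.45e-05), with a 95% interval of 1.42 to 1.91. With any single library left out it stayed at 1.59 to 1.74, and it came to 1.45 with a pseudocount of 1, the setting that moved it most. *Magt1*, its paralog, had 13.1, 18.8 and 16.5 FPKM with control siRNA and 21.6, 23.9 and 21.8 FPKM with *Xbp1* siRNA. Control replicate 1 was the lowest, and the highest control library stayed below the lowest silenced one. *Magt1* rose by 39.0%, with a log2 fold change of 0.49 (standard error 0.12, adjusted p = 0.0171), and without silenced replicate 2 it did not pass (adjusted p = 0.0586).

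Together the oxidoreductase genes had 19.6 ± 2.98 FPKM with control siRNA and 33.7 ± 1.62 FPKM with *Xbp1* siRNA (SD, n = 3). The share of *Tusc3* in this sum was 20.5%, 16.3% and 16.7% in the control libraries and 36.7%, 31.6% and 31.6% in the silenced ones. *Magt1* remained the more abundant of the pair in every library. The ratio of *Magt1* to *Tusc3* was 3.87, 5.13 and 5.0 in the control libraries and 1.72, 2.16 and 2.17 in the silenced ones, a difference of −1.18 on the log2 scale, and the groups did not overlap (exact two-sided permutation test, p = 0.10, the smallest this design allows, adjusted p = 0.133 over 4 pairs). How the authors' counting divided reads that match both paralogs is not given in the sources used here.

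The catalytic subunits moved in opposite directions. *Stt3a* rose from 52.6, 61.2 and 58.9 FPKM to 69.3, 68.6 and 67.3 FPKM, with a log2 change of 0.25 (standard error 0.058, adjusted p = 0.0110). *Stt3b* had 65.4, 69.5 and 76.3 FPKM against 60.3, 63.9 and 61.7 FPKM and fell, with a log2 change of −0.18 (standard error 0.060, adjusted p = 0.0455). With control siRNA *Stt3b* was the more abundant in each library, and with *Xbp1* siRNA *Stt3a* was. The ratio of *Stt3a* to *Stt3b* was 0.804, 0.881 and 0.772 with control siRNA and 1.15, 1.07 and 1.09 with *Xbp1* siRNA, a difference of 0.43 on the log2 scale (exact two-sided permutation test, p = 0.10, adjusted p = 0.133 over 4 pairs). Their sum differed little, at 128 ± 8.92 FPKM and 130.4 ± 1.85 FPKM (SD, n = 3). The fall of *Stt3b* still passed without control replicate 1. With no filter (adjusted p = 0.0565) it did not pass, with any other library left out the adjusted p was 0.0645 to 0.126, and after quantile normalization it was 0.192.

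**Figure D4:**
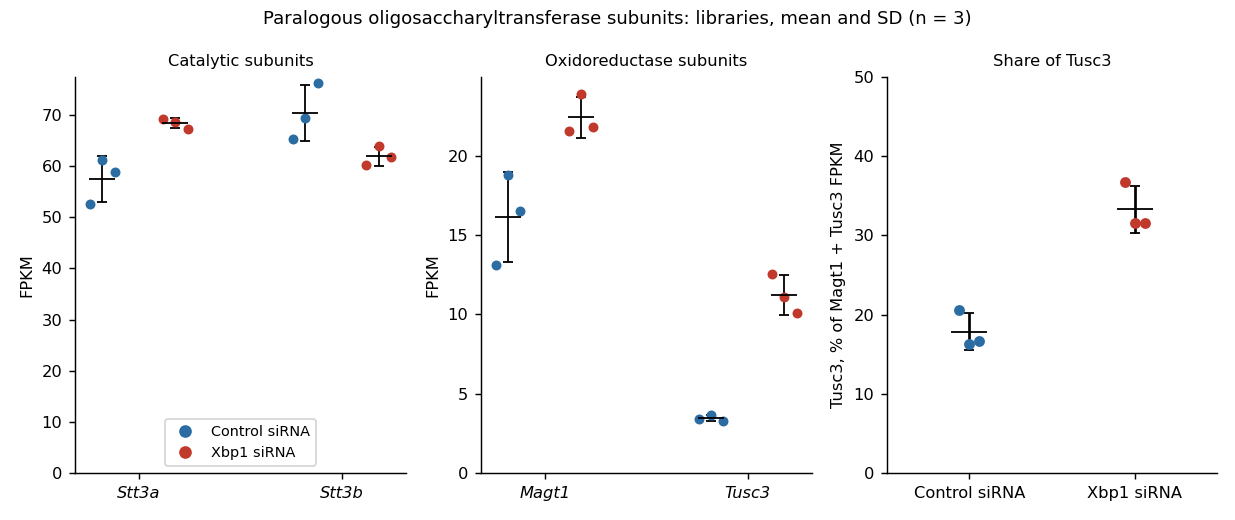
FPKM of the catalytic subunits (left) and of the oxidoreductase subunits (middle), and Tusc3 as a percentage of the summed FPKM of Magt1 and Tusc3 (right), 1 point per library, with control siRNA in blue and Xbp1 siRNA in red; horizontal marks are means and bars are SD (n = 3). The share of *Tusc3* lies between 16.3% and 20.5% in the control libraries and between 31.6% and 36.7% in the silenced ones, and the order of *Stt3a* and *Stt3b* changes between the groups.

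Neither subunit that goes with STT3A passed. *Ostc* had 101, 111 and 113 FPKM and 104, 92.6 and 91.3 FPKM, with a log2 fold change of −0.18 that did not pass (adjusted p = 0.0608). It did pass as lower without control replicate 1 (adjusted p = 0.0321) or silenced replicate 1 (adjusted p = 0.0189). *Krtcap2* had 276, 273 and 244 FPKM and 297, 261 and 269 FPKM, with overlapping groups and a log2 change of 0.060 (95% interval −0.090 to 0.21, adjusted p = 0.50).

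Among the subunits found in both forms, *Ddost* and *Rpn1* rose. *Ddost*, which encodes the 48-kDa subunit of the core, had 261, 256 and 241 FPKM with control siRNA and 306, 304 and 300.1 FPKM with *Xbp1* siRNA, with a log2 change of 0.26 (standard error 0.037, adjusted p = 0.00107). *Rpn1*, the gene of ribophorin I, which binds substrates and anchors the complex at the ribosome, had 207, 207 and 204 FPKM against 227, 224 and 216 FPKM, with a log2 change of 0.11 (standard error 0.031, adjusted p = 0.0241). This change of 7.93% was the smallest in percent of those that passed, and without control replicate 2 or 3 or silenced replicate 1 or 2 it did not pass (adjusted p from 0.0621 to 0.0762). *Rpn2* had 494, 497 and 486 FPKM and 487, 496 and 468 FPKM, and *Dad1*, a small subunit first described as a defender against cell death, had 247, 226 and 229 FPKM and 250.3, 230.3 and 241 FPKM. Neither passed, with 95% intervals of −0.10 to 0.048 for *Rpn2* and −0.068 to 0.15 for *Dad1*. After quantile normalization *Rpn2*, *Dad1* and *Krtcap2* passed as higher, with log2 changes of 0.24, 0.19 and 0.22, and those of *Ddost* and *Rpn1* were 0.41 and 0.24.

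Other genes of ER entry and N-glycosylation were examined as 8 lists with 61 symbols, of which 57 matched a row. *Dhdds* stands on 2 rows and was kept out of the counts. Of the remaining 56 genes, 16 rose, 13 fell and 27 did not pass, and 0 reached a log2 fold change of 1, the largest change being 0.65 in size. The 29 that passed are 51.8% of these genes, between the 40.4% of all rows and the 54.3% of rows with a mean of at least 10 FPKM that passed, and 49 of the 56 had such a mean, 27 of these passing. The counts for single lists below stand against the same shares, 20.2% of all rows having passed in each direction. At an unadjusted p under 0.05, 19 were higher and 19 lower, beside 24.6% and 24.3% of all rows, weakly expressed ones included. After quantile normalization 22 rose and 11 fell, beside 21.7% and 18.5% of all rows.

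Of the genes that hold ribosomes or their receptors at the ER, 3 of 4 fell and 1 did not pass, with a median log2 fold change of −0.42. *Rrbp1*, a ribosome-binding protein of ER sheets, had 45.1, 43.3 and 44.5 FPKM against 30.4, 31.6 and 32.3 FPKM, with a log2 change of −0.49 (standard error 0.042, adjusted p = 1.04e-04). *Lrrc59* had a log2 change of −0.48 and *Ktn1*, the gene of kinectin, one of −0.36 (adjusted p = 5.84e-05 and 4.14e-04). Of the genes of the BiP cycle, which pulls chains into the lumen, 3 of 4 fell: *Hspa5*, encoding BiP itself, had a log2 change of −0.29, the exchange factor *Sil1* had a log2 change of −0.17, and *Hyou1* had a log2 change of −0.11 (adjusted p = 1.46e-04, 0.0213 and 0.0367). After quantile normalization none of these 3 passed, with log2 changes of −0.027 for *Hspa5*, −0.13 for *Sil1* and 0.042 for *Hyou1* (adjusted p = 0.441, 0.0680 and 0.441). The fall of *Sil1* also did not pass with control replicate 1 or 3 or any single silenced library left out (adjusted p from 0.0526 to 0.0688), nor did that of *Hyou1* with any single control library or silenced replicate 2 or 3 left out (adjusted p from 0.0635 to 0.118). In the GET pathway, which inserts tail-anchored proteins without SRP, 0 of 7 genes rose and 3 fell. The receptor gene *Get1*, listed under its older symbol *Wrb*, had 20.5, 22.0 and 20.2 FPKM against 14.5, 14.6 and 13.5 FPKM, with a log2 change of −0.55 (standard error 0.060, adjusted p = 3.21e-04). Its partner *Camlg* had a log2 change of −0.28 and *Get4* had a log2 change of −0.23 (adjusted p = 3.38e-04 and 0.00650). After quantile normalization *Camlg* had a log2 change of −0.12.

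Of the genes that build the dolichol-linked glycan, the substrate of oligosaccharyltransferase, 9 of 21 rose and 1 fell, with a median log2 change of 0.18. The gene that fell was *Dpm1*, with a log2 change of −0.26 (adjusted p = 0.00292). *Dhdds*, outside this count, had 1 row lower, at −0.51, and 1 row higher, at 0.15. *Alg14*, which takes part in adding the second sugar, had 14.8, 14.2 and 16.5 FPKM against 22.1, 25.2 and 24.3 FPKM, with a log2 change of 0.65 (standard error 0.077, adjusted p = 4.83e-04). *Srd5a3*, which reduces polyprenol to dolichol, had a log2 change of 0.60, and the mannosyltransferase gene *Alg9* had a log2 change of 0.55 (adjusted p = 0.00507 and 0.00162). Of the multipass translocon, 2 of 4 genes rose, *Ncln* with a log2 change of 0.48 and *Ccdc47* with a log2 change of 0.17 (adjusted p = 0.00252 and 0.0131). Of the other entry and clearance factors, 3 of 4 rose: *Sec61a2*, described above, *Zmpste24*, a protease that clears blocked channels, with a log2 change of 0.30, and *Hm13*, the signal peptide peptidase, with a log2 change of 0.21 (adjusted p = 0.00649 and 0.00287), the latter at 0.32 after quantile normalization. The ER membrane protein complex, an insertase, was mixed, with 2 of 10 genes higher and 2 lower, *Emc1* having a log2 change of 0.37, *Emc7* 0.23 and *Mmgt1* −0.36 (adjusted p = 9.29e-05, 0.00248 and 0.00504). Of 2 further genes tied to oligosaccharyltransferase, *Mlec*, encoding a lectin that binds ribophorin I, fell with a log2 change of −0.40 (adjusted p = 1.34e-04), and the other did not pass.

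**Figure D5:**
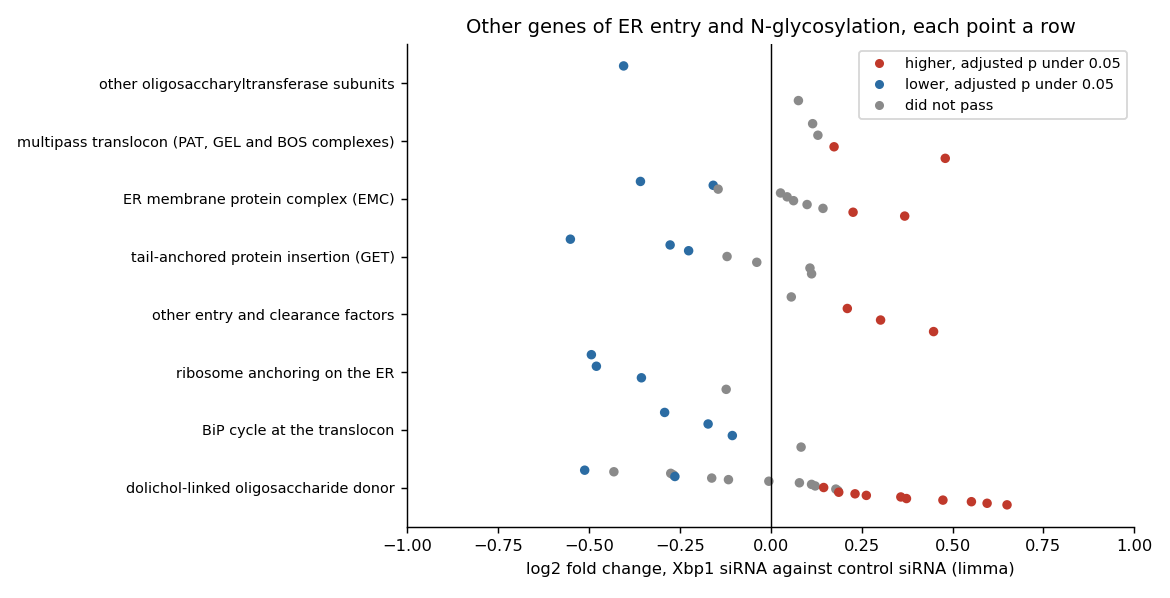
Log2 fold change (Xbp1 siRNA against control siRNA, x axis) of the genes in 8 further lists of ER entry and N-glycosylation, 1 point per row of the table; red marks rows that rose, blue rows that fell and grey rows that did not pass, and the height within a list only separates the points. The list of ribosome anchoring lies wholly below 0, from −0.49 to −0.12. That of the dolichol-linked donor reaches furthest above 0, to 0.65, and also reaches below it, to −0.51 at 1 row of *Dhdds*.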

How the data were processed

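The authors sequenced stranded mRNA libraries of 6 samples, 3 per condition, on an Illumina instrument and deposited FPKM values, 1 library per file. The submitters' processing notes name HISAT2 2.1.0 and Cuffdiff 2.2.1. The genome build and annotation are not given in the sources used here, so no coordinates are printed. FPKM values are not counts, so the DESeq2 test of the study was replaced by limma 3.58.1 in R 4.3.3 (lmFit and eBayes with an intensity trend) on log2(FPKM + 0.1), for the 14361 rows with a mean FPKM of at least 0.1, with Benjamini-Hochberg adjustment. The fit was tested on simulated data. Pairs of paralogs were compared by exact permutation tests in scipy 1.17.1 (Python 3.11.15). The gene lists were chosen with earlier results of these data known. Named were all matched members and, in each further list, up to 3 genes that passed, by the size of their change, as well as *Dpm1*, *Dhdds* and *Nus1*. Promoter motifs and protein sequences of paralogs, also planned, were not analysed here. Read depth is not stated in the files, so no counting interval is given. As alternatives, the pseudocount was set to 1 or 0.01, the filter was raised to 1 FPKM or dropped, and the others were median-ratio scaling, quantile normalization, eBayes without trend, the replicate number as a block, and leaving out each library.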

Additional observations from a re-analysis of the deposited data

How the results depend on the processing

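Of 490 values recomputed for the 35 genes, 424 kept their direction and their side of the adjusted p of 0.05, 53 no longer passed, 7 newly passed and 6 turned direction, none of the last for a gene that had passed. *Rpn2*, counted among those 6, also newly passed. Those that turned were *Sec62*, at 0.030 after quantile normalization and at 0.020 to 0.032 without *Xbp1* siRNA replicate 1 or control replicate 3, *Sec63* at 0.011 and *Rpn2* at 0.24 after quantile normalization (adjusted p = 5.75e-04), and *Sec11c* at −0.10 without control replicate 3. With 1 library left out, *Sec62* ranged from −0.075 to 0.032 and *Sec11c* from −0.10 to 0.47. *Hyou1*, of the BiP cycle, was at 0.042 after quantile normalization. That scaling gave 17 members higher and 7 lower and moved their median to 0.10, and the cause was not tested. eBayes without trend gave 5 members higher and 8 lower, and the cause was not tested. Leaving out 1 library gave 6 to 9 members higher, 8 to 12 lower and a median of 0.0033 to 0.026. *Tusc3* was the 1 member called at a log2 fold change of 1 under each setting. Over all rows, a pseudocount of 1 called 114 higher and 205 lower, since it shrinks the changes of weakly expressed genes, while raising the filter to 1 FPKM called 242 higher, with fewer rows tested. The Sec11a to Sec11c ratio, near 0 as reported, was at −9.75e-05 with a pseudocount of 0.01 and at −0.24 to 0.36 with 1 library left out. With the replicate number as a block, 10 members rose and 12 fell, *Srp9* no longer passing (adjusted p = 0.0599). Same-numbered libraries were not treated as pairs, their deviations from the group means having, over genes, r of −0.029, −0.027 and −0.012. Small changes are limited by 3 libraries per group and by unknown read depth.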

Other observations

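*Dhdds*, which encodes a subunit of the enzyme that makes the dolichol backbone, stands on 2 rows of the deposited tables that moved in opposite directions. The first had 62.8, 64.3 and 61.9 FPKM with control siRNA and 45.1, 44.0 and 43.4 FPKM after silencing, which is −0.51 on the log2 scale (adjusted p = 4.25e-05, limma). The second had 54.5, 55.6 and 53.4 FPKM and 59.7, 62.8 and 58.5 FPKM, with 0.15 (adjusted p = 0.0244, limma). What sets the rows apart is not given in the files, and how reads were divided between them was not tested. *Nus1*, the gene of the partner subunit, had 100.1, 103 and 104 FPKM against 131, 134 and 133 FPKM, with a log2 change of 0.37 (adjusted p = 8.91e-05, limma). *Nus1* and these rows were singled out after their values were seen.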
